A study of Mus musculus with 6 samples.

Results

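The genes examined were 9 core genes of the type I interferon response, namely Ifit1, Ifit2, Ifit3, Isg15, Rsad2 (viperin), Cmpk2, Ifi44, Herc6 and Xaf1, taken by symbol from the 23420 genes of the count table. All 9 had a row in the table, and all 9 passed the filter on low counts. Expression was compared between 3 Ctl MSC libraries and 3 MSC-TPr libraries, prepared from polyadenylated RNA of mouse bone marrow-derived mesenchymal stromal cells (MSCs). The cells came from femurs of female C57BL/6 mice aged 6 to 8 weeks and were grown in AMEM with 10% FBS and penicillin-streptomycin. MSC-TPr carried a retroviral construct with eGFP and the thymoproteasome subunits β1i (Psmb9), β2i (Psmb10) and β5t (Psmb11). Ctl MSCs carried the empty backbone of the same construct. Both groups were therefore transduced, but the amount of virus taken up by each is not given. No interferon treatment is named for these libraries. The labels do not say whether the libraries of a group came from separate cultures, and p-values therefore measure only the spread between these libraries, which may be technical.

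Interferons bind cell surface receptors whose JAK kinases activate transcription factors in the cytoplasm. Stat2 and Irf9 are among the factors that then bind the interferon-stimulated response element (ISRE) in front of target genes. The 9 genes are classical targets, kept low in resting cells and strongly induced by viral nucleic acid or added interferon. Their products act at different steps of virus growth: the IFIT proteins bind foreign RNA, Isg15 is attached to other proteins, and viperin makes a modified nucleotide that stops viral polymerases.

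Each library held 16158756 to 22158887 reads on genes, and levels are given in CPM (counts scaled to the library size with edgeR's TMM factors). Several properties of the libraries bear on what follows. Psmb11 had 1 to 6 reads per library, and Psmb9, Psmb10 and Psmb11 each overlapped between the groups over 6 libraries, so directions below are directions between library labels. Without the libraries numbered 1, Psmb10 was called higher in MSC-TPr, at 17.3 and 15.2 CPM against 8.81 and 8.38 CPM (log2 fold change 0.92, edgeR adjusted p = 0.00547). The libraries left out of that fit lay in the reverse order. Ctl MSC 1 had the highest Psmb10 level of all, 27.8 CPM, whereas MSC-TPr 1 had 8.97. The call therefore does not show that the construct was expressed in these libraries. The paper reports eGFP and immunoblots of the subunits as its check of transduction. The libraries numbered 1 stood apart from those of their own label: 12 cell division genes had a mean log2 CPM of 6.88 in Ctl MSC 1, beside 6.75 and 6.83 in MSC-TPr 2 and 3, and 3.49 in MSC-TPr 1, beside 3.50 and 3.46 in Ctl MSC 2 and 3. Whether the labels of these libraries were exchanged was not tested. Ctl MSC 2 and 3 were the closest pair of libraries, with a chi-square of their counts of 4.97 per gene. The next closest pair, MSC-TPr 2 and 3, had 52.6, so the spread within Ctl MSC without library 1 was small. Because the libraries numbered 1 stood apart, results are also given without both of them. For the 9 genes and some listed genes they are also given from a fit to all 6 libraries with the cell division level as a covariate. With this covariate Psmb10 had a log2 fold change of −0.36 (edgeR adjusted p = 0.253). Without the libraries numbered 1, the remaining Ctl MSC libraries were low and the remaining MSC-TPr libraries high in cell division. All 12 cell division genes were called higher in MSC-TPr there (median log2 fold change 3.41), so label and cell division cannot be told apart in that fit. Among the MSC markers, Cd44, Nt5e (CD73) and Eng (CD105) were detected in every library, whereas Thy1 (CD90) had 1 read in Ctl MSC 1 and 0 in the others. Of the blood cell markers Ptprc, Emr1 (F4/80), Laptm5 and Cd3e, none exceeded 0.0928 CPM in any library, whereas Cd14 ran from 3.27 to 13.2 CPM and Cd68 from 0.789 to 14.2 CPM, the latter highest in MSC-TPr 1.

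The promoters of the 9 genes were searched for an ISRE core, taken as 2 GAAA tetramers separated by any 2 bases, on both strands and in windows from 250 bases before to 50 bases after the transcription start (RefSeq, GRCm38.p6, the build of mm10). The core was present in 4 of the 9 genes, Ifit1, Ifit3, Isg15 and Rsad2, against 3.99% of the 27025 genes with a promoter window. The stretches that hold it are shown so that the number and direction of the elements can be compared between these 4 genes. They read 5′ to 3′ on the strand of the gene, with the core in capitals (TTTC in place of GAAA where it lies on the opposite strand).
Ifit1 (chr19:34640755-34640843, + strand): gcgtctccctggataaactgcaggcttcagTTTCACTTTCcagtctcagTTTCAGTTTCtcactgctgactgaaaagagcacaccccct
Ifit3 (chr19:34583343-34583446, + strand): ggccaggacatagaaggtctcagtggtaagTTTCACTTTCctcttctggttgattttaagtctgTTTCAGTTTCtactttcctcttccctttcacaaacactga
Isg15 (chr4:156200845-156200926, - strand): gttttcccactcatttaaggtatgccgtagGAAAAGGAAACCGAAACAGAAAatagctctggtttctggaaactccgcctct
Rsad2 (chr12:26456533-26456602, - strand): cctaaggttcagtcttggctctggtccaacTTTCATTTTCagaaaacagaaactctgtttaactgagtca
Comparing them, Ifit1 and Ifit3 each hold 2 antisense cores, beginning 104 and 85 bases before the start in Ifit1 and 156 and 122 bases before it in Ifit3. In Isg15, 3 sense cores overlap one another in a single run, beginning 78, 72 and 66 bases before the start, and Rsad2 holds 1 antisense core, 120 bases before its start. The shorter form GAAANNGAA, which every full core contains, was found in 9.76% of all genes and in 5 of the 9, the additional gene being Ifi44, where the match begins 3 bases before the start. Ifit2, Cmpk2, Herc6 and Xaf1 had neither form in their windows, which says only that these letters are absent there. Among 35 other interferon-induced genes with a window, 19 (54.3%) held the full core, and among 9 cell division genes, 0 did.

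All 9 genes were lower in MSC-TPr than in Ctl MSC. For each of them the highest MSC-TPr library lay below the lowest Ctl MSC library, a pattern found in 12.1% of the 11974 genes tested. The log2 fold changes ran from −3.88 (Ifi44) to −0.91 (Ifit2), with a median of −2.55, against a median of 0.01 over all genes tested. A log2 fold change of −1 or lower was seen in 8 of the 9, all but Ifit2, and in 5.85% of all genes. Genes were called where edgeR's quasi-likelihood test gave an adjusted p under 0.05 (Benjamini-Hochberg, all genes tested) and the log2 difference was 0.5 or more. By this rule 2 of the 9, Ifi44 and Rsad2, fell, beside 0.401% of all genes called lower, and 0 rose, beside 0.0251% called higher. All 9 had an unadjusted p under 0.05, as did 8.23% of all genes in the lower direction. Without both libraries numbered 1, 8 of the 9 were called lower (Herc6 was not), where the background was 19.4%. With the cell division covariate all 9 were called lower, where the background was 7.43%, and DESeq2 on all 6 libraries called 8 lower (again without Herc6), where it was 3.17%. In bulk RNA, fewer cells expressing a gene and less RNA per cell cannot be told apart.

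**Figure D1:**
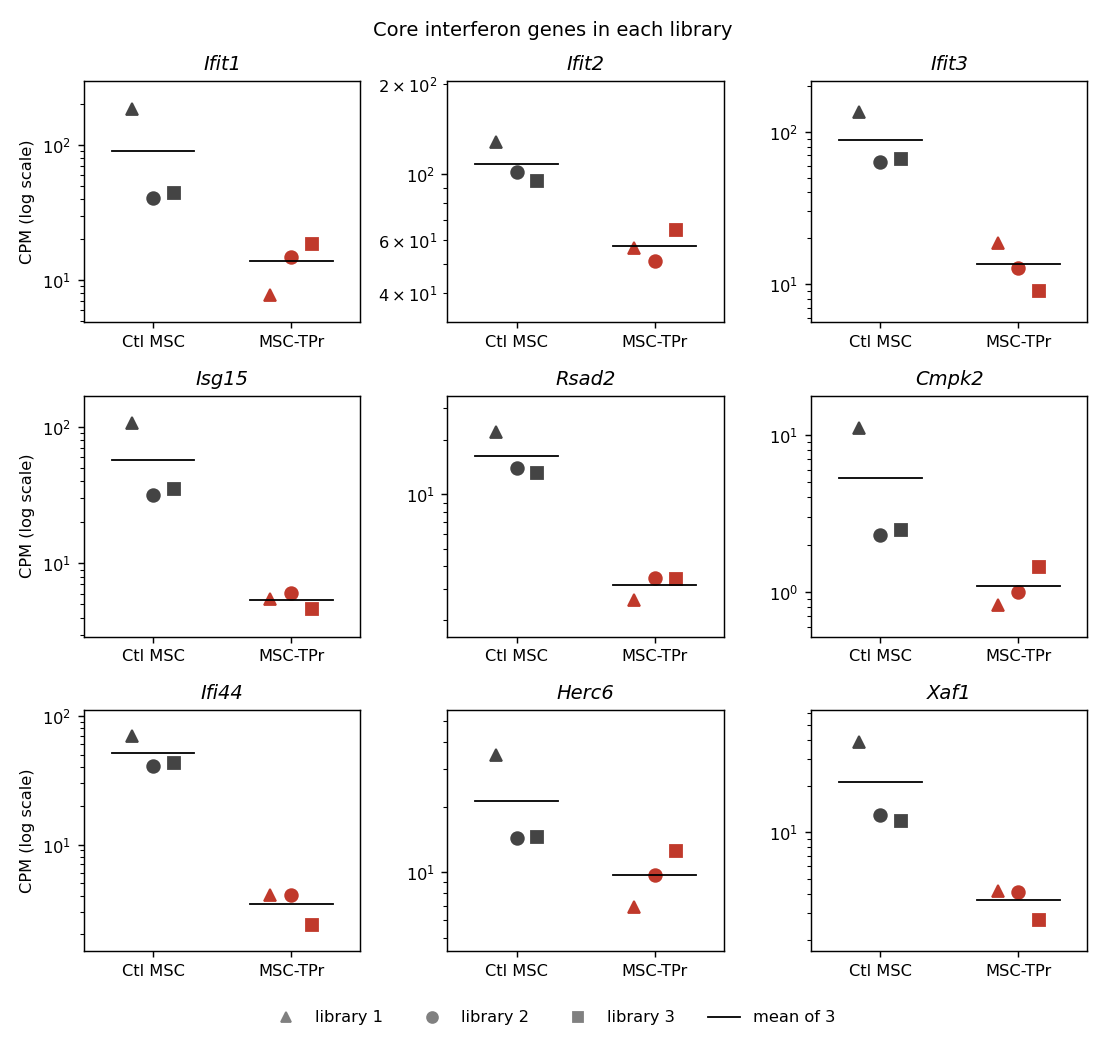
CPM of the 9 core interferon genes on a log scale, with a panel per gene, a point per library (the symbol gives the library number) and the mean of 3 libraries as a line. In every panel the 3 Ctl MSC points lie above the 3 MSC-TPr points, and the highest point is Ctl MSC 1.

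The IFIT genes lie together on chromosome 19 of mm10, where Ifit2 (34550694 to 34576419), Ifit3 (34583531 to 34588731) and Ifit1 (34640871 to 34650009) are all on the plus strand. Ifit1 encodes a protein that recognizes RNA whose cap lacks the methylation of host transcripts. It measured 186, 40.3 and 43.7 CPM in Ctl MSC 1, 2 and 3, as against 7.81, 14.8 and 18.6 in MSC-TPr 1, 2 and 3. The groups did not overlap, but Ctl MSC 1 was 4.43 times the mean of the other Ctl MSC libraries, and MSC-TPr 1 was 0.468 times the mean of the other MSC-TPr libraries. The difference on the log2 scale was −2.71 (SE 0.701, edgeR adjusted p = 0.180) over 6 libraries, and −1.33 (SE of 0.153, edgeR adjusted p = 0.00156) without the libraries numbered 1. Leaving out Ctl MSC 1 alone gave −1.61 (edgeR adjusted p = 0.108), so the size of the difference depended on this library.

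Ifit3, which encodes a partner of Ifit1 and Ifit2 in the same protein complex, measured 135, 63.4 and 66.2 CPM in Ctl MSC, as against 18.7, 12.8 and 9.0 in MSC-TPr, in the order of the library numbers. Every Ctl MSC library was at least 3.39 times every MSC-TPr library. The difference on the log2 scale was −2.71 (SE 0.416, edgeR adjusted p = 0.0697) over 6 libraries, and −2.57 (SE of 0.188, edgeR adjusted p = 0.000345) without the libraries numbered 1. Thus Ifit1 and Ifit3 had the same difference over 6 libraries, while that of Ifit3 depended less on the libraries numbered 1. Ifit2, whose product binds double-stranded RNA, measured 128, 101 and 94.7 CPM in Ctl MSC, as against 56.2, 51.0 and 64.8 in MSC-TPr. This was the tightest of the 9 genes within Ctl MSC, with a highest library 1.35 times the lowest, and over 6 libraries it had the smallest difference between the groups, 1.88-fold, whereas Herc6 had the smallest without the libraries numbered 1. The difference on the log2 scale was −0.91 (SE 0.180, edgeR adjusted p = 0.104) over 6 libraries, and −0.76 (SE of 0.149, edgeR adjusted p = 0.00929) over 4.

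The IFIT genes have close copies, which limits how far reads can be assigned. Of the 50-base words in Ifit3 transcripts, 51.2% also occur in transcripts of Ifit3b, and 7.13% of those in Ifit1 occur in Ifit1bl2 or Ifit1bl1, whereas 0% of those in Ifit2 occur in any other gene. The counts of Ifit3 and Ifit3b are therefore uncertain, as is in lesser measure that of Ifit1. Ifit3b (listed under its older symbol I830012O16Rik) measured 29.2, 7.42 and 6.89 CPM in Ctl MSC, as against 1.61, 2.19 and 2.41 in MSC-TPr. Ifit1bl2 (listed as 2010002M12Rik) measured 3.63, 1.01 and 0.993 CPM in Ctl MSC, as against 0.111, 0.296 and 0.371 in MSC-TPr (2, 5 and 8 reads). Neither overlapped between the groups, with log2 fold changes of −2.80 for both (edgeR adjusted p = 0.141 and 0.183) over 6 libraries. Ifit1bl1 (listed as Gm14446), at 5 to 18 reads per library, was too low to be tested, and its groups overlapped. In the list of IFIT, IFI44 and HERC relatives, 4 of 6 genes with a row were tested and 0 called by edgeR over 6 libraries. At an unadjusted p under 0.05, 2 were lower, as were 8.23% of all genes. The HERC relatives Herc3 and Herc4 had log2 fold changes of 0.24 and 0.23 (edgeR adjusted p = 0.864 and 0.572) over 6 libraries. Without the libraries numbered 1, 2 of these relatives were called lower, Ifit3b at −1.63 (edgeR adjusted p = 0.00195) and Ifit1bl2 at −1.55 (edgeR adjusted p = 0.0199). In the same fit 1 was called higher, Herc3 at 0.93 (edgeR adjusted p = 0.0446), where the background was 19.4% lower and 20.6% higher. Herc4, at 0.44 (edgeR adjusted p = 0.0263), was below the size that the rule asks for. With the cell division covariate 2 of the relatives were called lower and 0 higher, where the background was 7.43% lower. Herc3 was then at 0.16 (edgeR adjusted p = 0.810).

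Isg15 (chromosome 4, 156199424 to 156200818, minus strand) encodes a ubiquitin-like protein that is joined to other proteins and is also secreted. It measured 106, 31.5 and 35.1 CPM in Ctl MSC, as against 5.48, 6.03 and 4.64 in MSC-TPr. The MSC-TPr libraries were close to one another, with the highest 1.30 times the lowest, while Ctl MSC 1 was 3.18 times the mean of Ctl MSC 2 and 3. On average Isg15 was 10.7-fold lower in MSC-TPr, or −3.41 on the log2 scale (SE 0.533, edgeR adjusted p = 0.0722) over 6 libraries, and −2.64 (SE of 0.178, edgeR adjusted p = 0.000275) without the libraries numbered 1. With Ctl MSC 1 alone left out it passed the call rule, at −2.62 (edgeR adjusted p = 0.0179).

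Herc6 (chromosome 6, 57581000 to 57664632, plus strand) encodes the main ligase that joins Isg15 to its substrates in mouse cells. It measured 34.9, 14.4 and 14.5 CPM in Ctl MSC, as against 6.92, 9.70 and 12.5 in MSC-TPr. The gap between the groups was the narrowest of the 9 genes, with the lowest Ctl MSC library 1.15 times the highest MSC-TPr library. Its log2 fold change was −1.13 (SE 0.429, edgeR adjusted p = 0.293) over 6 libraries, −0.37 (SE 0.175, edgeR adjusted p = 0.127) without the libraries numbered 1 and −0.57 (edgeR adjusted p = 0.281) without Ctl MSC 1. With the cell division covariate it was −1.36 (SE 0.185, edgeR adjusted p = 0.00479). Its exons share 1269 bases with Gm45193 on the same strand, which was not analysed here, so its count is uncertain.

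The other genes of Isg15 conjugation were examined as a list of 5, of which 4 were tested. Usp18, the protease that removes Isg15 and also dampens signalling at the interferon receptor, fell 11.2-fold. It measured 46.3, 22.8 and 25.6 CPM in Ctl MSC, as against 4.37, 2.37 and 1.72 in MSC-TPr, and its log2 difference was −3.49 (SE 0.470, edgeR adjusted p = 0.0485) over 6 libraries and −3.58 (edgeR adjusted p = 0.000176) over 4. Uba7, the activating enzyme, had a log2 fold change of −2.34 (edgeR adjusted p = 0.123) and Trim25, a ligase that can also use Isg15, one of −0.80 (edgeR adjusted p = 0.183), each without overlap between the groups. Without the libraries numbered 1 both were called lower, Uba7 at −1.76 (edgeR adjusted p = 0.0170) and Trim25 at −0.91 (edgeR adjusted p = 0.00542), where the background was 19.4%. Ube2l6, the conjugating enzyme, did overlap, with 17.8, 3.79 and 4.08 CPM in Ctl MSC, as against 3.43, 6.03 and 7.33 in MSC-TPr. Its log2 fold change turned from −0.61 (edgeR adjusted p = 0.718) over 6 libraries to 0.77 (edgeR adjusted p = 0.0248) without the libraries numbered 1. With the cell division covariate it was −0.86 (edgeR adjusted p = 0.0734), so its direction depended on the fit.

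Rsad2 and Cmpk2 are neighbours on chromosome 12 that point away from each other, Rsad2 on the minus strand (26442746 to 26456452) and Cmpk2 on the plus strand (26469204 to 26479837), with 12.75 kb between them. Rsad2 encodes viperin, a radical SAM enzyme that converts CTP into a chain terminator of viral RNA synthesis, and Cmpk2 encodes a mitochondrial nucleotide kinase. Rsad2 measured 22, 13.9 and 13.1 CPM in Ctl MSC, as against 2.60, 3.43 and 3.39 in MSC-TPr. Both groups were tight, with a highest library 1.68 times the lowest in Ctl MSC and 1.32 times in MSC-TPr. Rsad2 fell 5.19-fold, which is −2.38 on the log2 scale (SE 0.292, edgeR adjusted p = 0.0352) over 6 libraries, and −1.98 (SE of 0.171, edgeR adjusted p = 0.000594) over 4. With each library left out in turn it stayed between −2.51 and −2.10, and the call held without Ctl MSC 1 and was lost without any of the other 5 libraries (highest edgeR adjusted p = 0.218).

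Cmpk2 was the least abundant of the 9 genes, with 183, 43 and 45 reads in Ctl MSC, as against 15, 17 and 31 reads in MSC-TPr. In CPM this was 11.1, 2.30 and 2.48 against 0.830, 1.01 and 1.44. Ctl MSC 1 stood 4.63-fold above the mean of Ctl MSC 2 and 3, the widest such gap of the 9 genes. The log2 fold change was −2.26 (SE 0.708, edgeR adjusted p = 0.226) over 6 libraries, −0.94 (SE 0.290, edgeR adjusted p = 0.0402) over 4 and −1.12 (edgeR adjusted p = 0.172) without Ctl MSC 1. The neighbours therefore differed in size over the 4 libraries, although each was lower in every MSC-TPr library than in every Ctl MSC library, and the difference between them was not tested.

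Ifi44 (chromosome 3, 151730922 to 151749960, minus strand), which encodes an interferon-induced cytoplasmic protein, had the largest difference of the 9 genes. It measured 69.2, 41.0 and 43.2 CPM in Ctl MSC, as against 4.04, 4.02 and 2.37 in MSC-TPr. The lowest Ctl MSC library was 10.1 times the highest MSC-TPr library, the widest gap of the 9 genes. Its log2 fold change, a 14.7-fold fall, was −3.88 (SE 0.343, edgeR adjusted p = 0.0142) over 6 libraries, −3.74 (SE 0.241, edgeR adjusted p = 0.000238) over 4 and −3.95 (SE 0.277, edgeR adjusted p = 0.000337) with the covariate. Leaving out each library in turn gave −4.01 to −3.60, and the call held without Ctl MSC 1 or MSC-TPr 1 and was lost without any of the other 4 (highest edgeR adjusted p = 0.154). Its relative Ifi44l had 1 read in MSC-TPr 3 and 0 in the other libraries.

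Xaf1 (chromosome 11, 72301629 to 72313733, plus strand) encodes an antagonist of the caspase inhibitor XIAP. It measured 39.0, 13.0 and 11.8 CPM in Ctl MSC, as against 4.15, 4.08 and 2.69 in MSC-TPr. All MSC-TPr libraries were low, and Ctl MSC 1 was 3.15 times the mean of Ctl MSC 2 and 3. The log2 fold change was −2.55 (SE 0.537, edgeR adjusted p = 0.121) over 6 libraries, and −1.88 (SE of 0.237, edgeR adjusted p = 0.00207) over 4.

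**Figure D2:**
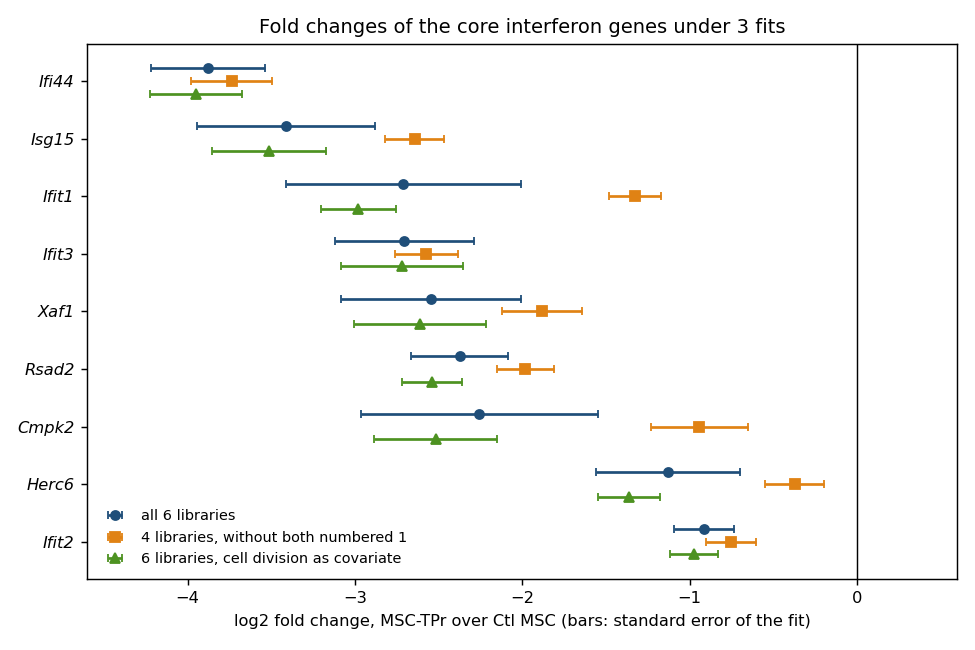
Log2 fold changes of the 9 core interferon genes (MSC-TPr over Ctl MSC) from edgeR, with the standard error of each fit as bars, over all 6 libraries, over the 4 libraries numbered 2 and 3, and over 6 libraries with cell division as a covariate. All values are below 0; Ifi44 and Ifit3 hardly move between fits, whereas Ifit1 is −2.71 over 6 libraries and −1.33 over 4.

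Levels were compared between genes per kilobase of exon (CPM divided by the merged exon length in GENCODE M21). In Ctl MSC, Isg15 was the most abundant of the 9 in each library, at 140, 41.6 and 46.4 CPM per kb, followed by Ifit3 at 77.3, 36.3 and 38.0 CPM per kb. Ifit1 (15.2 to 70.0 CPM per kb) and Ifit2 (24.1 to 32.6 CPM per kb) came next and changed places between Ctl MSC libraries. Ifi44 held the fifth place in all 3 Ctl MSC libraries, at 6.69 to 11.3 CPM per kb, and Xaf1, Rsad2, Herc6 and Cmpk2 lay between 0.552 and 8.32 CPM per kb. In MSC-TPr, Ifit2 was the most abundant in each library, at 14.3, 13.0 and 16.5 CPM per kb, while Isg15, Ifit3 and Ifit1 lay between 2.94 and 10.7 CPM per kb and changed places between libraries. Ifi44 was among the lowest in MSC-TPr, at 0.386 to 0.659 CPM per kb, where Xaf1 and Rsad2 ran from 0.574 to 0.886. It lay between these genes in MSC-TPr 1 and below both in MSC-TPr 2 and 3. Cmpk2 had the lowest level of the 9 in all 6 libraries. The order of the genes was therefore not the same under both labels, with Isg15 the most abundant in Ctl MSC and Ifit2 in MSC-TPr.

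Within the groups, Ctl MSC 1 had the highest level of all 9 genes, from 1.30 (Ifit2) to 4.63 times (Cmpk2) the mean of Ctl MSC 2 and 3. MSC-TPr 1 did not stand to one side in the same way: it was below both other MSC-TPr libraries for 4 genes (Ifit1, Rsad2, Cmpk2 and Herc6), above both for 3 (Ifit3, Ifi44 and Xaf1) and between them for Ifit2 and Isg15. Ctl MSC 1, MSC-TPr 2 and MSC-TPr 3 were the libraries with high cell division genes, and the part of cell division in these differences was not tested beyond the covariate. Among the libraries with high cell division, Ctl MSC 1 exceeded the mean of MSC-TPr 2 and 3 by 2.21-fold (Ifit2) to 21.7-fold (Ifi44), with a median of 11.2-fold over the 9 genes. Among those with low cell division, the mean of Ctl MSC 2 and 3 exceeded MSC-TPr 1 by 1.74-fold (Ifit2) to 10.4-fold (Ifi44), with a median of 3.46-fold. Each of these comparisons rests on a single library on one side and has no replicate check. With the covariate, log2 fold changes ran from −3.95 (Ifi44) to −0.97 (Ifit2), with edgeR adjusted p from 0.000337 to 0.00705.

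**Figure D3:**
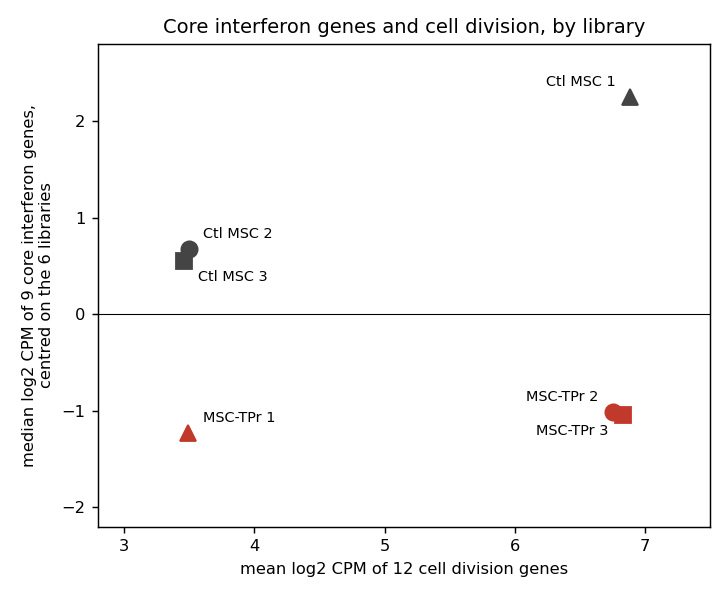
Median log2 CPM of the 9 core interferon genes, centred on the 6 libraries (vertical), against the level of 12 cell division genes as mean log2 CPM (horizontal), with a point per library. The 3 Ctl MSC libraries lie above 0 (0.55 to 2.25) and the 3 MSC-TPr libraries below it (−1.23 to −1.01), while each label has libraries at both ends of the horizontal axis.

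The pathway upstream of these genes was examined from fixed lists. Of 21 interferon genes, 17 had 0 reads in all 6 libraries (a count of 0 allows 3 reads, or 0.139 to 0.181 CPM, for counting error only). Ifnb1 had 1 read in each of Ctl MSC 3, MSC-TPr 2 and MSC-TPr 3, Ifne and Ifng had 1 read each over the 6 libraries, and Ifnz had 6, 5 and 4 reads in Ctl MSC, as against 3, 1 and 3 in MSC-TPr. Ifnz did not overlap between the groups, but all its counts were at most 6 reads. None of the 21 passed the filter for a test, and no difference in the other interferon transcripts was detectable at this depth. Of the 20 genes for receptors, JAK kinases, STAT and IRF factors and SOCS inhibitors, 18 were tested and 0 called in either direction by edgeR over 6 libraries. At an unadjusted p under 0.05, 5 were lower (against 8.23% of all genes) and 0 higher. The groups did not overlap in 6 lower and 2 higher (Irf2 and Irf3), against 12.1% and 10.6% of all genes. Without the libraries numbered 1, 6 were called lower and 1 higher (background 19.4% and 20.6%), and with the covariate 6 were called lower and 0 higher (background 7.43% lower). The list's median log2 fold change was −0.16 over 6 libraries.

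Within this list Stat2, Irf9 and Irf7, which are themselves interferon-induced, had lower values in MSC-TPr. Stat2 measured 82.8, 55.8 and 50.7 CPM in Ctl MSC, as against 24.7, 17.5 and 21.6 in MSC-TPr, with a log2 fold change of −1.57 (edgeR adjusted p = 0.0731). Irf9 measured 58.4, 37.9 and 41.3 CPM in Ctl MSC, as against 23.6, 18.8 and 13.7 in MSC-TPr, with −1.29 (edgeR adjusted p = 0.121). Neither of these overlapped between the groups. Irf7, the factor that amplifies interferon production, measured 19.2, 8.76 and 9.60 CPM in Ctl MSC, as against 2.05, 1.72 and 1.53 in MSC-TPr, with −2.82 (edgeR adjusted p = 0.0504). With the covariate all 3 were called lower, with edgeR adjusted p from 0.00158 to 0.0153. The receptor subunit Ifnar1 had −0.50 (edgeR adjusted p = 0.297) and did not overlap, whereas its partner Ifnar2 had 0.00 (SE 0.179, edgeR adjusted p = 0.994), and Jak1 and Tyk2 had −0.14 and −0.17 (edgeR adjusted p = 0.717 and 0.802) with overlapping groups. Irf3, which starts the response to viral nucleic acid and is not itself interferon-induced, was higher in each MSC-TPr library (22.7 to 24.8 CPM) than in each Ctl MSC library (18 to 21.8 CPM), with 0.26 (edgeR adjusted p = 0.522).

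**Figure D4:**
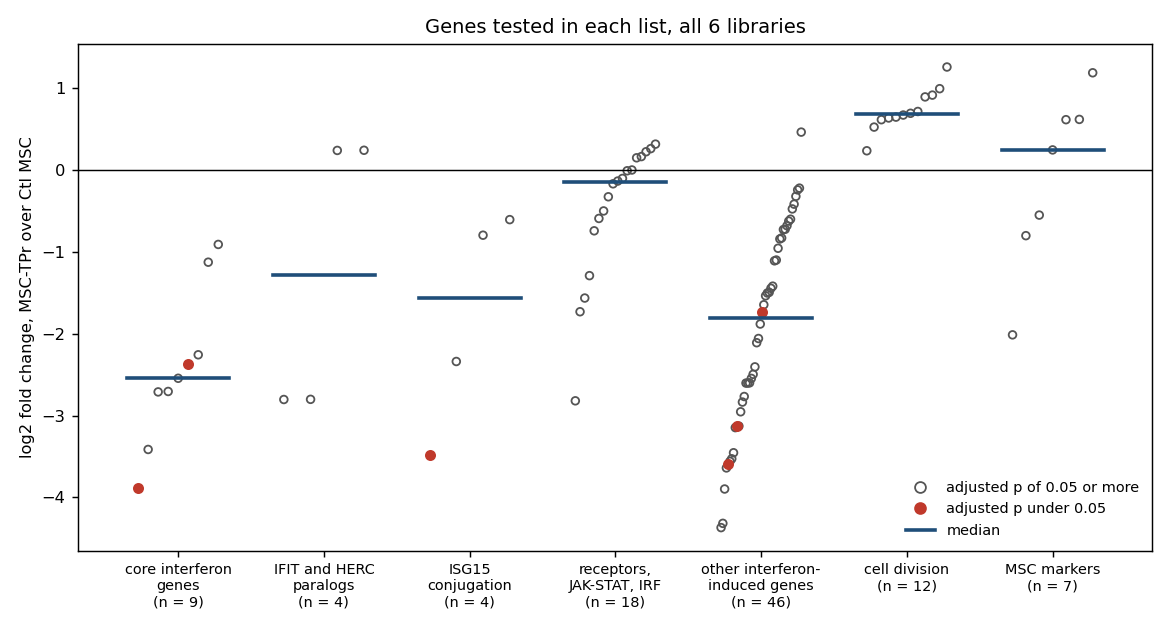
Log2 fold change (MSC-TPr over Ctl MSC, all 6 libraries) of every gene tested in 7 lists, with a point per gene, filled where the edgeR adjusted p was under 0.05, and the median of each list as a bar. The medians are −2.55 for the core interferon genes, −1.81 for other interferon-induced genes, −0.16 for receptors and factors and 0.68 for cell division genes.

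Other interferon-induced genes had values in the same direction. Of 49 listed genes 46 were tested, and 45 of these had a negative log2 fold change, with a median of −1.81 against 0.01 over all genes tested. The groups did not overlap in 36, all lower in MSC-TPr, as in 12.1% of all genes. Over 6 libraries 3 fell and 0 rose, where 0.401% and 0.0251% of all genes were called. Without the libraries numbered 1, 34 were called lower and 1 higher (background 19.4% and 20.6%), and with the covariate 39 lower and 0 higher (background 7.43% lower). Over 6 libraries the largest differences of the list were those of Iigp1, an interferon-induced GTPase (−4.37, edgeR adjusted p = 0.0947), and Oas2, an oligoadenylate synthetase that activates RNase L (−4.32, edgeR adjusted p = 0.0587), neither of which was called. Without the libraries numbered 1 both were called, Iigp1 at −3.11 (edgeR adjusted p = 0.000867) and Oas2 at −3.48 (edgeR adjusted p = 0.00184), and the largest difference was that of Ddx60, a helicase-like protein, at −3.75 (edgeR adjusted p = 0.000614). Oas2 had 69, 38 and 29 reads in Ctl MSC and 1, 3 and 3 in MSC-TPr, so the size of its difference is uncertain. The 3 that fell were Oasl2, a relative of the oligoadenylate synthetases (−3.59, SE 0.406, edgeR adjusted p = 0.0307), Ccl5, a chemokine (−3.13, SE 0.397, edgeR adjusted p = 0.0391), and Lgals3bp, a secreted glycoprotein (−1.74, SE 0.147, edgeR adjusted p = 0.0127). Ccl5 differed from the 9 core genes in that Ctl MSC 1 was its lowest Ctl MSC library, with 17.9, 24.9 and 26 CPM in Ctl MSC, as against 1.38, 3.67 and 2.78 in MSC-TPr. Lgals3bp measured 311, 271 and 277 CPM in Ctl MSC, as against 88.5, 77.8 and 91.4 in MSC-TPr.

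The genes most like the 9 core genes were found by the root mean square difference between a gene's centred log2 CPM and the median centred profile of the 9 genes, over the 6 libraries. The 10 closest were Ifit3b (0.19), Oas1b (0.24), Gbp2 (0.26), Mx2 (0.27), Sp100 (0.28), Gbp7 (0.28), Ifit1bl2 (0.28), Gbp5 (0.29), Ddx58 (0.29) and Ifi203 (0.29). Among the core genes themselves this difference ran from 0.24 (Xaf1) to 0.90 (Ifi44), so Xaf1 was nearest to the common profile and Ifi44, with the larger fall, and Ifit2 (0.80), with the smaller difference, were the farthest from it. The values describe 6 libraries that share their depth scaling, and no test was attached to them. Some of these genes were near 0 reads in MSC-TPr, among them Gbp5 with 2, 1 and 3 reads. Gbp2, an interferon-induced GTPase, measured 40.2, 9.45 and 9.71 CPM in Ctl MSC, as against 3.93, 3.02 and 4.22 in MSC-TPr. Ddx58, which encodes the viral RNA sensor RIG-I, measured 117, 60.0 and 59.2 CPM in Ctl MSC, as against 17.3, 15.6 and 21.8 in MSC-TPr.

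Marker lists were set beside these results. Of 13 blood cell markers 3 were tested (Cd14, Cd68 and Csf1r) and 0 called by edgeR over 6 libraries, 0 at an unadjusted p under 0.05. Without the libraries numbered 1, 1 was called lower and 2 higher (background 19.4% and 20.6%), and with the covariate 0 were called. The summed level of the list ran from 11.2 to 14.7 CPM in Ctl MSC and from 13.0 to 17.6 CPM in MSC-TPr. Of 5 endothelial markers 1 was tested, and their summed level ran from 0.785 to 3.09 CPM and from 1.62 to 3.32 CPM. Of 8 MSC markers 7 were tested and 0 called over 6 libraries (1 had an unadjusted p under 0.05). Without the libraries numbered 1 Nt5e was called lower and 3 were called higher, Cd44 (1.88), Col1a1 (2.94) and Col1a2 (1.38), against the same background. With the covariate 1 was called lower, again Nt5e, and 0 higher (background 7.43% lower). The list had summed levels from 2892 to 7447 CPM and from 1978 to 13646 CPM. Nt5e was lower in every MSC-TPr library, with 11.4, 20.2 and 17.4 CPM in Ctl MSC, as against 2.66, 4.20 and 5.24 in MSC-TPr (log2 fold change −2.02, edgeR adjusted p = 0.0790).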

How the data were processed

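RNA of 3 Ctl MSC and 3 MSC-TPr libraries was sequenced with a stranded polyA kit and paired reads. Reads were aligned to mm10 and assigned to genes with Htseq-count by the authors, who deposited raw counts by gene symbol. The submitters' processing notes name CASAVA 1.8.2, Trimmomatic 0.35 and TopHat2 2.1.0, while the annotation and strand setting are not given in the sources used here. Summary rows (13.8% to 20.8% of each library) were left out.

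The whole table was fitted with edgeR 4.0.16 in R 4.3.3, using TMM factors, filterByExpr, a quasi-likelihood test of group alone and Benjamini-Hochberg adjustment. A printed SE equals the absolute log2 value over the root of the F statistic. DESeq2 1.42.0 (Wald test) was an alternative, and log2 CPM used a prior count of 2. Both tools were checked on simulated data. No simulated library stood apart from its label, so the check does not cover that feature of these data. The floor of 3 reads covers counting error only. Symbols were matched to GENCODE M21 (21777 directly, 1260 by an older symbol, 383 not).

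The 9 genes, the lists and the alternatives were chosen with earlier results of these data known. Named genes were the 9, list genes that were called, did not overlap or act directly with them, and the 10 most alike in profile. Some listed genes are not reported here by name.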

Additional observations from a re-analysis of the deposited data

How the results depend on the processing

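All 9 core interferon genes kept a negative log2 fold change under all 14 alternatives, and RLE factors, upper quartile factors and a minimum of 10 counts in every library left 2 of them called lower. Of the 9, DESeq2 called 8 lower, no filter on low counts 4, the cell division covariate 9, the fit without both libraries numbered 1 8, and leaving out each library in turn 0 to 4, with 7 to 9 at an unadjusted p under 0.05. With each library left out, the genes tested with an unadjusted p under 0.05 ran from 925 of 12167 (without Ctl MSC 3) to 2843 of 12184 (without Ctl MSC 1). Over all genes, the numbers called lower and higher in MSC-TPr were 48 and 3 over 6 libraries, 428 and 232 with DESeq2, 890 and 567 with the covariate, 2356 and 2498 without both libraries numbered 1, and 0 to 105 and 0 to 11 with each library left out, while a minimum of 10 counts gave 29 lower. Without a filter on low counts, 62 of 16807 genes were called lower. Other interferon-induced genes called lower numbered 34 without the libraries numbered 1 and 39 with the covariate (added after seeing the data), and receptors and factors 6 and 6. The cause of these shifts was not tested. Same-numbered libraries deviated in opposite directions from their group means (correlations across genes of −0.765, −0.594 and −0.604). The libraries numbered 1 stood apart in opposite directions, and around a mean of 3 libraries this also opposes the deviations of the others. These correlations therefore cannot show whether the numbers pair the libraries. With the replicate number as a block, edgeR called 0 genes lower and 0 higher, and 0 of the 9, with 776 genes and 7 of the 9 at an unadjusted p under 0.05. All 9 genes were above the floor of 3 reads in every library.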

Other observations

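Of the 46 other interferon-induced genes tested, 10 overlapped between the groups, namely Ifih1, Zbp1, Eif2ak2, Ifitm3, Pnpt1, Nmi, Tap1, Psmb8, Psmb9 and B2m, and these were examined after their values were seen. Pnpt1, an RNA exonuclease of mitochondria, was the single gene of the list with a positive log2 fold change over 6 libraries (0.46, SE 0.276, edgeR adjusted p = 0.490), with 84.1, 52.3 and 50.4 CPM in Ctl MSC, as against 64.6, 105 and 86.7 in MSC-TPr. Without the libraries numbered 1 it was called higher, at 0.90 (edgeR adjusted p = 0.00371), and Ifitm3 (0.30), Nmi (0.16), Psmb8 (0.60) and Psmb9 (0.59) also had positive values, which were not called. In that fit label and cell division cannot be told apart. With the covariate Pnpt1 was at 0.27 (edgeR adjusted p = 0.194) and not called. Ifitm3 was then called lower, at −0.54 (edgeR adjusted p = 0.0348), where the background was 7.43%. Nmi (−0.31) and Psmb9 (−1.12) were also negative but not called. Zbp1, a sensor of Z-form nucleic acid, measured 10.2 CPM in Ctl MSC 1, while the other 5 libraries lay between 0.388 and 1.01 CPM. Its log2 fold change went from −2.60 (edgeR adjusted p = 0.328) over 6 libraries to −0.19 (edgeR adjusted p = 0.666) without the libraries numbered 1. With the covariate it was called lower, at −2.98 (edgeR adjusted p = 0.00843).

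Several of these genes serve antigen presentation. B2m, the light chain of MHC class I, measured 599, 578 and 605 CPM in Ctl MSC, as against 704, 426 and 372 in MSC-TPr (log2 fold change −0.25, edgeR adjusted p = 0.710), and was called lower without the libraries numbered 1, at −0.57 (edgeR adjusted p = 0.0152). The background of that fit was 19.4% lower. With the covariate B2m was at −0.17 (edgeR adjusted p = 0.569) and not called. Tap1, the peptide transporter subunit, measured 20.5, 10.3 and 11.3 CPM in Ctl MSC, as against 10.5, 7.81 and 13.1 in MSC-TPr (−0.42, edgeR adjusted p = 0.616). Psmb8, the β5i subunit of the immunoproteasome, measured 13.8, 4.49 and 4.74 CPM and 2.60, 5.74 and 8.12 CPM (−0.48, edgeR adjusted p = 0.755). With the covariate Psmb8 was called lower, at −0.90 (edgeR adjusted p = 0.0326), the opposite direction to its value without the libraries numbered 1.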
